A study of Homo sapiens with 8 samples.

Results

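Pluripotency factors other than the SOX family were followed through the guides of a genome-wide knockout screen that target POU5F1, NANOG, SALL4, PRDM14, KLF4, KLF5, LIN28A and LIN28B. Members were taken by the gene symbol of the guide alone. This gave 48 of the 119461 guides in the count table, 6 per gene, of which 3 come from part A and 3 from part B of the human GeCKOv2 library. All 48 reached the minimum for testing, a raw count of 10 when averaged over the 8 libraries, as did 116852 guides in all.

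The cells were MB157R, a triple-negative breast cancer line that had become resistant to γ-secretase inhibition. In every group the cells expressed Cas9 and had been grown in blasticidin and selected with puromycin. The T0 group is a pair of aliquots of the transduced pool, frozen at the end of selection. Day 14 is represented by 6 cultures grown from the same pool, 3 that received only the vehicle DMSO and 3 that received 10 µM of the γ-secretase inhibitor (GSI) LY3039478. GSI blocks the cleavage that frees the active intracellular domain of NOTCH receptors. The comparison of GSI with DMSO asks which knockouts change the growth of resistant cells while NOTCH is blocked, and the comparisons with T0 ask which knockouts change growth in either medium. All 8 libraries come from 1 transduction of 1 line, so p-values measure the spread between cultures or aliquots of the same pool. A guide count measures how many cells carry a guide, and the screen holds no measurement of how strongly these genes are expressed in MB157R.

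In embryonic stem cells, POU5F1 (OCT4) and NANOG bind DNA together with SOX2 and keep the undifferentiated state, and SALL4 and PRDM14 take part in the same network. KLF4 is a reprogramming factor, and its relative KLF5 is also a regulator of basal epithelial and breast cancer cell growth. LIN28A and LIN28B bind RNA and block the maturation of let-7 microRNAs, which repress growth genes. Several of these factors have been studied as markers of cancer stem cells. In a knockout screen, guides against a gene that cells need become rarer over time, and guides against a gene that restrains growth become more frequent.

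In the annotation of GRCh38, all 8 members are protein-coding genes. POU5F1 lies at chr6:31164337-31180731 on the minus strand, NANOG at chr12:7787794-7799146 on the plus strand, SALL4 at chr20:51782331-51802521 on the minus strand and PRDM14 at chr8:70051651-70071693 on the minus strand. KLF4 lies at chr9:107484852-107490482 on the minus strand, KLF5 at chr13:73054976-73077541, LIN28A at chr1:26410817-26429728 and LIN28B at chr6:104936616-105083332, these last 3 on the plus strand. Cut sites within the genes were not analysed here.

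The libraries held 12052218 to 18212884 counts. In GSI replicate 1, 38.8% of the counts belonged to 1 guide against VPS33B. The T0 libraries resembled each other least, with a Spearman correlation of 0.38 over all tested guides and 0.35 over the 48 member guides, and 26 of the 48 (54.2%) differed more than 2-fold between them, against 57.8% of all tested guides. T0 replicate 2 held 6 member guides at a count of 0 and T0 replicate 1 held 2, while no library of day 14 held more than 1. A count of 0 allows up to 3 reads, a bound that covers counting error only because reads of PCR products are not independent molecules. Values below are counts divided by the size factor of the library and are called normalised counts. A value for a gene in a library is the mean normalised count of its 6 guides. Its fold change is the median of the log2 fold changes of those guides. The SD over guides given with it measures the spread between guides, not between cultures.

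No member gene passed the threshold in any comparison. In GSI against DMSO, 0 of the 8 genes were called lower and 0 higher by robust rank aggregation (RRA), which asks whether the guides of a gene sit together at an end of the ranked guide list, where the shares over all 18570 genes were 0% and 0%. At an unadjusted RRA p under 0.05 the count was also 0 of 8 on either side, against 5.06% of all genes on the low side and 4.99% on the high side. In DMSO against T0, RRA called 0.0323% of all genes lower and 0% higher, with no member among them. At an unadjusted p under 0.05, 6.12% of all genes were on the low side and 5.30% on the high side, and 0 members. In GSI against T0, RRA called 0% of genes lower and 0% higher, and at an unadjusted p under 0.05, 5.69% and 5.39% of all genes were on the low and the high side, again with 0 members. The lowest RRA p of a member was 0.0788 in GSI against DMSO, for the high side of LIN28A, 0.0953 in DMSO against T0, for the low side of LIN28A, and 0.142 in GSI against T0, for the high side of NANOG. DESeq2 guide statistics in place of edgeR gave 0 called member genes in each comparison too.

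Single guides gave the same count. edgeR's quasi-likelihood test called 0 of the 48 member guides in each of the 3 comparisons, and 0% of all guides in each. At an unadjusted edgeR p under 0.05, GSI against DMSO had 1 member guide lower (1.46% of all guides) and 0 higher (1.55% of all guides). DMSO against T0 had 0 lower (3.55% of all guides) and 1 higher (4.19% of all guides). GSI against T0 had 2 lower (3.99% of all guides) and 1 higher (4.72% of all guides). DESeq2 called 0, 1 and 3 member guides in these comparisons, and all 4 of those calls fell on guides named below. Of all guides, DESeq2 called 0 in GSI against DMSO, 5.66% in DMSO against T0 and 6.71% in GSI against T0.

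Taken over the 48 guides, the median log2 fold change was −0.12 in GSI against DMSO, against −0.02 for all tested guides and −0.08 for the 999 tested non-targeting controls. It was −0.12 in DMSO against T0, where all guides had a median of 0.00 and the controls 0.25, and −0.21 in GSI against T0, where all guides had −0.02 and the controls 0.18. In each comparison 28 member guides had a negative and 20 a positive fold change, a negative share of 58.3% against 51.4%, 49.95% and 50.8% of all guides. Both comparisons with T0 share the T0 libraries, and the DMSO and GSI libraries each enter a pair of comparisons, so these values are not independent of each other. The sign of the median over the members depended on single libraries and on the use of replicate numbers. Without DMSO replicate 1 it was 0.10 and without DMSO replicate 2 it was 0.03 in GSI against DMSO, without DMSO replicate 3 it was 0.01 in DMSO against T0, and without T0 replicate 1 it was 0.05 in GSI against T0. With the replicate number as a block it was 0.04 in GSI against DMSO, where all guides had 0.03.

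Libraries of the groups compared did not overlap for 4 member guides in GSI against DMSO, 2 lower (4.36% of all guides) and 2 higher (4.72% of all guides). In DMSO against T0, 5 member guides lay lower in every DMSO library (13.1% of all guides) and 6 higher (14.9% of all guides). Against T0, 6 lay lower in every GSI library (13.6% of all guides) and 6 higher (15.7% of all guides). Of the gene means, only that of NANOG in GSI against T0 did not overlap. The share of all genes whose means did not overlap was not counted, so this does not set NANOG apart. The shares of member guides that were separated from T0 were near those of all guides, so the counts alone do not set these genes apart.

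POU5F1, the core homeodomain factor of the pluripotency network, was carried at mean normalised counts of 113 and 101 in T0 replicates 1 and 2. The DMSO cultures 1 to 3 had 134, 104 and 149, and the GSI cultures 109, 137 and 128. The 3 groups overlapped, and the means were 128.8 ± 22.7 for DMSO and 124.5 ± 14.3 for GSI (SD, n = 3 each). The fold change of the gene was 0.01 ± 0.73 (SD over 6 guides) in GSI against DMSO, with 3 guides negative and 3 positive, which placed POU5F1 at percentile 53.7 of all genes. It was −0.39 ± 1.00 in DMSO against T0 and 0.05 ± 0.67 in GSI against T0.

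The 6 guides of POU5F1 did not move as a set. In DMSO against T0 they ranged from −0.96 to 1.60 on the log2 scale, and in GSI against DMSO from −0.86 to 1.18. Guide HGLibB_37736 was the only POU5F1 guide above both T0 libraries in every DMSO culture, with normalised counts of 269 and 163 at T0 and 300, 274 and 355 with DMSO. Its fold change was 0.52 (SE 0.47), with an unadjusted edgeR p of 0.294. Guide HGLibB_37738 had a count of 0 in T0 replicate 1 and 132 in T0 replicate 2, a gap between aliquots of the same pool that was wider than any of its differences between groups. Guide HGLibA_37787 had 33.5 and 41.6 at T0 and 51.5, 45.2 and 47.7 with GSI, without overlap, and a fold change of 0.36 (SE 1.01).

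POU5F1B, a retrogene copy of POU5F1 at chr8:127322183-127420066, has 6 guides of its own in the library. Guide sequences were not read here, so whether guides of either gene also match the other was not tested. Guide HGLibB_37740 against POU5F1B had a count of 0 in both T0 libraries and normalised counts of 168, 74.9 and 57.3 with DMSO and 60.2, 62.2 and 30.2 with GSI. The other 5 guides of POU5F1B had fold changes from −1.26 to 0.58 in DMSO against T0. The gene as a whole had an RRA p of 0.0200 on the high side in DMSO against T0, with an adjusted p of 0.889.

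NANOG, a homeodomain factor that stabilises the undifferentiated state, had mean normalised counts of 92.9 and 111 at T0. The DMSO cultures had 119, 98.7 and 105, and the GSI cultures 119, 118 and 157. Every GSI culture lay above both T0 libraries, with a mean of 131.5 ± 22.0 (SD, n = 3) against 102.0 ± 12.9 (SD, n = 2). Permuting the libraries (exact, two-sided) gave p = 0.2, the lowest value possible with 3 and 2. GSI and DMSO overlapped, at a ratio of 1.22 (exact two-sided permutation test, p = 0.2).

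In GSI against DMSO, 5 of the 6 NANOG guides had a positive fold change, with a median of 0.32 ± 0.62 (SD over 6 guides), the highest of the 8 members and percentile 87.9 of all genes. The exact RRA p was 0.0914 on the high side, with an adjusted p of 0.968. The median stayed between 0.24 and 0.45 when any 1 library was left out. With the replicate number as a block it was 0.19, where the median of all genes was 0.04. The median over the same guides in GSI against T0 was 0.00, with 3 guides negative and 3 positive. The mean gives more weight to abundant guides than the median does, and the 2 measures differ for this gene.

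Guide HGLibA_31089 was the NANOG guide with the lowest p. Its normalised counts were 150 and 96.4 at T0, 196, 267 and 185 with DMSO and 252, 240 and 316 with GSI. All 6 libraries of day 14 were above both at T0. The log2 fold change was 1.13 (SE 0.46) in GSI against T0, with an edgeR p of 0.0379 and an adjusted p of 0.550. DESeq2 gave an adjusted p of 0.0445. Guide HGLibB_31048 went the other way, with 99.0 and 148 at T0, 2.04, 43.8 and 47.8 with DMSO and 22.6, 72.6 and 65.2 with GSI, all 6 below both T0 libraries. Guide HGLibB_31049 had 77.2 and 115 at T0 and 170, 256 and 169 with GSI, above T0 in each GSI culture (log2 fold change 1.05, SE 0.54). The fold change of HGLibB_31048 was −1.98 (SE 1.21, edgeR adjusted p = 0.757) in DMSO against T0.

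SALL4, a zinc finger partner of POU5F1 and NANOG that recruits the NuRD corepressor, had mean normalised counts of 125 and 99.8 at T0, 93.8, 131 and 97.9 with DMSO and 61.9, 124 and 87.1 with GSI. The lowest value belonged to GSI replicate 1 and the group ranges overlapped. The fold change was −0.14 ± 0.51 (SD over 6 guides) in GSI against DMSO, −0.12 ± 0.93 in DMSO against T0 and −0.26 ± 0.45 in GSI against T0, with 4 of the 6 guides negative in each. Guide HGLibB_42604 had 109 and 172 at T0 and 34.7, 40.4 and 93.4 with DMSO, which did not overlap (log2 fold change −1.32, SE 0.85, edgeR adjusted p = 0.775). Guide HGLibA_42656 had 80.3 in T0 replicate 1 and a count of 0 in T0 replicate 2, against 32.6 to 108 in the 6 libraries of day 14.

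PRDM14, a PR-domain zinc finger protein of germ cells and naive pluripotency, had mean normalised counts of 191 and 129 at T0, 184, 128 and 200 with DMSO and 151, 128 and 140 with GSI. The GSI mean of 139.5 ± 11.4 (SD, n = 3) was 0.817 of the DMSO mean of 170.7 ± 37.7 (SD, n = 3), and the groups overlapped (exact two-sided permutation test, p = 0.3). In GSI against DMSO, 5 of the 6 guides had a negative fold change, with a median of −0.20 ± 0.49 (SD over 6 guides) and an RRA p of 0.132 on the low side (adjusted p = 0.985). The median stayed negative when any 1 library was left out, from −0.33 to −0.03.

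Guide HGLibA_38377 of PRDM14 was the member guide with the lowest p of that gene in GSI against DMSO. Its normalised counts were 170, 112 and 132 with DMSO and 76.6, 68.9 and 55.5 with GSI, so that every GSI culture lay below every DMSO culture. The fold change was −1.04 (SE 0.52), with an unadjusted edgeR p of 0.0597. At T0 this guide had 128 in replicate 1 and a count of 0 in replicate 2, so its change from T0 could not be placed.

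Guides of PRDM14 diverged against T0. HGLibA_38376 had 312 and 277 at T0, 168, 116 and 175 with DMSO and 154, 132 and 123 with GSI, below T0 in all 6 libraries of day 14. The T0 values of this guide were close to each other, and its log2 fold change was −1.11 (SE 0.43) in GSI against T0, with an edgeR p of 0.0292 and an adjusted p of 0.526. DESeq2 gave an adjusted p of 0.0156. HGLibB_38328 had 82.7 and 10.6 at T0, 124, 135 and 133 with DMSO and 105, 122 and 162 with GSI, above T0 in all 6, with a fold change of 1.48 (SE 0.99, edgeR adjusted p = 0.788) in DMSO against T0. HGLibB_38327 had 75.6 and a count of 0 at T0 and 97.6 to 262 with DMSO. HGLibA_38378, with 330 and 335 at T0 the most abundant guide of the gene, had 288, 209 and 240 with GSI, below T0 in each culture (fold change −0.44, SE 0.38). With guides on both sides, the median of the gene was 0.45 ± 1.31 in DMSO against T0 and −0.15 ± 1.10 in GSI against T0.

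KLF4, a Krüppel-like factor used to reprogramme somatic cells, was the member whose T0 libraries were furthest apart. The mean normalised count was 133 in T0 replicate 1 and 22.8 in T0 replicate 2, a 5.80-fold gap, and all 6 guides differed more than 2-fold between these aliquots, 5 of them higher in replicate 1. The cultures of day 14 lay between, with 105, 80.2 and 62.6 for DMSO and 97.1, 103 and 69.4 for GSI. Fold changes against T0 were −0.10 ± 0.56 with DMSO and −0.10 ± 0.67 with GSI, and they turned to 2.81 and 2.89 without T0 replicate 1. The sign against T0 thus depended on which T0 library was used.

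Between the arms, KLF4 was the member gene whose guides differed least among themselves. The fold change of GSI against DMSO was −0.03 ± 0.39 (SD over 6 guides), with 3 guides negative and 3 positive and a range from −0.31 to 0.75. The most abundant guide, HGLibB_25037, had 365, 239 and 206 with DMSO and 345, 370 and 180 with GSI, a fold change of 0.14 (SE 0.39). HGLibB_25036 had 153, 154 and 93.4 with DMSO and 137, 119 and 148 with GSI, a fold change of 0.01 (SE 0.46). HGLibA_25071, HGLibA_25073 and HGLibB_25038 were much scarcer, with mean raw counts of 13.1, 14.4 and 37.2. HGLibA_25071 and HGLibB_25038 had a count of 0 in T0 replicate 2, and HGLibA_25071 also in GSI replicate 3.

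KLF5, a Krüppel-like factor of proliferating basal epithelium, had the lowest fold change of the 8 members in GSI against DMSO and in GSI against T0. Its guides were also the scarcest. The mean normalised count was 32.9 and 66.0 at T0, 42.2, 21.5 and 18.8 with DMSO and 38.1, 18.5 and 26.3 with GSI. DMSO averaged 27.5 ± 12.8 (SD, n = 3) and GSI averaged 27.6 ± 9.85 (SD, n = 3), which is 0.556 and 0.559 of the T0 mean of 49.5 ± 23.4 (SD, n = 2), and DMSO and GSI each overlapped with T0 (exact two-sided permutation test, p = 0.4 for each). At day 14 no KLF5 guide averaged more than 44.5 normalised counts over the 6 cultures, whereas the most abundant guide of each other member averaged from 200.3 to 352.0.

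The gene mean of KLF5 was the same in both arms, at a ratio of 1.01, while the median over guides was −0.52 ± 1.70 (SD over 6 guides) in GSI against DMSO. This median placed KLF5 at percentile 3.31 of all genes, outside the 5th to 95th percentiles of −0.47 to 0.49, and the RRA p of the low side was 0.0885 with an adjusted p of 0.985. The SD over guides was the largest of the 8 members. Without DMSO replicate 1 the median was 0.76, and without GSI replicate 2 it was −0.01. With the replicate number as a block it was 0.14, so its direction depended on single cultures and on the fit. Against T0 the median was −0.48 ± 1.61 with DMSO and −0.78 ± 2.60 with GSI, at percentiles 18.5 and 7.09 of all genes, with RRA p-values of 0.132 and 0.152 on the low side.

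A single guide gave KLF5 its lowest values. HGLibB_25040 had normalised counts of 56.1 and 174 at T0, 58.2, 32.8 and 34.0 with DMSO and 2.51, 0 and 9.73 with GSI. Each GSI culture lay below each DMSO culture and below T0. The log2 fold change was −3.33 (SE 1.36) in GSI against DMSO, with an edgeR p of 0.0237 and an adjusted p of 1.0, and −4.80 (SE 1.53) in GSI against T0, with an edgeR p of 0.0127 and an adjusted p of 0.482. DESeq2 called the latter, with an adjusted p of 0.00987.

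HGLibA_25075, also against KLF5, had the opposite pattern. Its normalised counts were 28.6, 16.0 and 23.4 with DMSO and 67.8, 43.7 and 87.6 with GSI, so that every GSI culture lay above every DMSO culture, with a fold change of 1.55 (SE 0.81, edgeR adjusted p = 1.0). The pair targets the same gene, with fold changes of opposite sign that each exceed their SE. HGLibB_25041 was below T0 in all 6 libraries of day 14, with 49.9 and 61.9 at T0, 32.7, 0 and 1.06 with DMSO and 18.8, 0.74 and 4.87 with GSI, a fold change of −2.79 (SE 1.5, edgeR adjusted p = 0.66) in GSI against T0. HGLibA_25074 had 71.0 and 99.1 at T0 and 34.7, 19.4 and 44.6 with DMSO, also without overlap (fold change −1.37, SE 1.07, edgeR adjusted p = 0.832). The remaining pair, HGLibA_25076 and HGLibB_25039, had counts of 0 in T0 replicate 2 and in T0 replicate 1, and HGLibB_25039 had a further 0 in DMSO replicate 3.

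LIN28A, an RNA-binding protein that blocks let-7 maturation, had mean normalised counts of 111 and 139 at T0, 93.3, 125 and 131 with DMSO and 104, 98.9 and 124 with GSI, with all 3 groups overlapping. The median over its guides was −1.01 ± 1.22 (SD over 6 guides) in DMSO against T0, at percentile 4.69 of all genes and just outside their 5th percentile of −0.99. The exact RRA p was 0.0953 on the low side, with an adjusted p of 0.941. Without T0 replicate 2 the median was 1.51. In GSI against T0 it was −0.23 ± 0.87 and in GSI against DMSO −0.27 ± 0.81, where it stayed between −0.35 and −0.20 when any 1 library was left out.

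The guides of LIN28A again pointed both ways. HGLibA_26558 had normalised counts of 79.5 and 128 at T0, 242, 348 and 288 with DMSO and 244, 187 and 190 with GSI, above T0 in all 6 libraries of day 14. Its log2 fold change of 1.49 (SE 0.53) in DMSO against T0 had an edgeR p of 0.0192 and an adjusted p of 0.566, and DESeq2 gave an adjusted p of 0.0147. HGLibB_26520 had 235 and 105 at T0 and 70.3, 58.5 and 70.1 with GSI, all below T0, with a fold change of −1.36 (SE 0.65, edgeR adjusted p = 0.609). HGLibA_26557 had 48.0, 54.7 and 61.6 with DMSO and 117, 100 and 121 with GSI, every GSI culture above every DMSO culture, with a fold change of 1.04 (SE 0.57, edgeR adjusted p = 1.0). The T0 libraries of that guide, at 12.5 and 237, lay on either side of all 6.

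LIN28B, the paralogue of LIN28A with the same action on let-7, had mean normalised counts of 172 and 141 at T0, 153, 176 and 129 with DMSO and 112, 93.9 and 176 with GSI. GSI replicates 1 and 2 were below the 5 libraries of T0 and DMSO, and GSI replicate 3 was among the highest. The fold change was −0.14 ± 0.40 (SD over 6 guides) in GSI against DMSO, −0.05 ± 0.52 in DMSO against T0 and −0.11 ± 0.45 in GSI against T0. Its most abundant guide, HGLibB_26525, had 310 and 294 at T0 and 351, 388 and 497 with DMSO, all above T0 (fold change 0.45, SE 0.41, edgeR adjusted p = 0.865). With GSI it had 176, 214 and 486, so the cultures of that arm lay on both sides of T0. HGLibB_26524 had the lowest fold change of the gene with DMSO against T0, −0.98 (SE 0.72), on counts of 370 and 174 at T0 and 259, 106 and 49.9 with DMSO.

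The targets of LIN28, the let-7 microRNAs, are knocked out in the same library by 44 guides against 11 precursors. Their mature forms are shown here because they are the sequences whose maturation LIN28A and LIN28B block. Taken from RefSeq (GRCh38.p14) and written 5′ to 3′ with the seed (bases 2 to 8) in capitals, the mature sequences of the precursors named below are as follows.
hsa-let-7b-5p: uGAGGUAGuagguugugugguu
hsa-let-7d-5p: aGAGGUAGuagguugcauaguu
hsa-let-7g-5p: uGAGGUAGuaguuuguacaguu
hsa-let-7i-5p: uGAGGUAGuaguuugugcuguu

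These lie at chr22:46113691-46113712 on the plus strand (let-7b), chr9:94178841-94178862 on the plus strand (let-7d), chr3:52268336-52268357 on the minus strand (let-7g) and chr12:62603691-62603712 on the plus strand (let-7i). All 11 entries of mature 5p let-7 share the seed GAGGUAG. The 43 tested let-7 guides had a median log2 fold change of 0.04 in GSI against DMSO, 0.19 in DMSO against T0 and 0.15 in GSI against T0, against 0.01, 0.00 and 0.01 for all 6524 tested microRNA guides. No let-7 guide was called by edgeR, and at an unadjusted p under 0.05 there was 1, in GSI against T0. Medians per precursor ran from −0.36 (let-7b) to 0.58 (let-7i) in GSI against DMSO, from −0.86 (let-7g) to 0.98 (let-7b) in DMSO against T0 and from −0.56 (let-7g) to 0.55 (let-7d) in GSI against T0.

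SOX2, the partner of POU5F1 and NANOG in the core network, had mean normalised counts over all 6 guides of 8.71 and 62.2 at T0, 65.7, 46.6 and 45.8 with DMSO and 30.8, 23.0 and 45.1 with GSI. GSI and DMSO did not overlap (p = 0.1 by exact two-sided permutation, the lowest value possible with 3 and 3), and both overlapped with T0. The fold change in GSI against DMSO was −1.15 ± 0.85 (SD over its 4 tested guides). By this median SOX2 had rank 3 from the lowest of all genes. Its RRA p, which ranks genes otherwise, was 0.00788 on the low side with an adjusted p of 0.959. Against T0 the fold change was 0.78 ± 1.56 with DMSO and 0.20 ± 0.99 with GSI, each with 2 guides negative and 2 positive. The 8 members ranged from −0.52 to 0.32 in GSI against DMSO. The difference between SOX2 and the members was not tested.

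Across the 8 libraries, the member most like PRDM14 was KLF4, with a Pearson correlation of 0.88 between their mean log2 normalised counts. SALL4 was also most like KLF4 (0.66), KLF5 and LIN28B were most like each other (0.62), as were NANOG and LIN28A (0.43), and POU5F1 was most like LIN28A (0.34). The lowest of all pairs was −0.72. These are descriptions over 8 points that share library depth and the same pool, and the low T0 replicate 2 value of KLF4 is 1 of them.

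Other genes of these families and pathways were counted as 7 lists with 106 symbols. RRA called none of their genes in any comparison, and p-values below are exact RRA p-values of the named side. The counts of all 7 lists at an unadjusted p under 0.05 stand beside these shares of all genes. They were 5.06% low and 4.99% high in GSI against DMSO, and 6.12% and 5.3% in DMSO against T0. In GSI against T0 they were 5.69% and 5.39%. Whether a list departs from these shares was not tested. In GSI against DMSO, at an unadjusted p under 0.05, the pluripotency network beyond the members had 3 of 31 tested genes on the low side and 1 on the high side, led by SOX2 and by MYC (median log2 fold change 0.88, exact p = 0.0361, adjusted p = 0.968). MYC, a growth regulator and reprogramming factor, had the lowest p of that list on the low side in DMSO against T0 (−1.84, exact p = 0.000539, adjusted p = 0.173) and in GSI against T0 (−1.85, p = 0.00226, adjusted p = 0.411). NR5A2, a nuclear receptor that can stand in for POU5F1 in reprogramming, had the lowest p on the high side of both. Its medians were 0.55 ± 3.87 (SD over 6 guides, exact p = 0.000623, adjusted p = 0.634) and 0.50 ± 3.91 (exact p = 0.00545, adjusted p = 0.810), so its guides differed widely. Each of these 2 comparisons had 1 gene of 31 on either side, and the list's guides had medians of 0.02, 0.05 and 0.06 in the 3 comparisons.

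The families of the members were counted in the same way. Of 15 other KLF genes, 0, 1 and 1 were on the low side and 1, 1 and 2 on the high side in GSI against DMSO, then DMSO against T0, then GSI against T0. KLF6 had 0.83 in GSI against DMSO (exact p = 0.0399 on the high side) and −1.82 in DMSO against T0 (p = 0.0184 on the low side), and KLF17 had 1.73 in GSI against T0 (p = 0.000710, adjusted p = 0.712). The median of KLF17 was also 1.77 in DMSO against T0 (exact RRA p = 0.2385 on the high side) and 0.165 in GSI against DMSO. KLF15 (−0.42, exact p = 0.0902) led the low side in GSI against DMSO, KLF3 (1.19, p = 0.00948) the high side in DMSO against T0 and KLF11 (−1.02, p = 0.0455) the low side in GSI against T0. Among 15 other POU genes the counts were 0, 2 and 0 on the low side and 0, 2 and 1 on the high side, led in GSI against DMSO by POU1F1 (−0.39, exact p = 0.0717) and POU4F2 (0.32, p = 0.0682). POU3F3 led the low side against T0 with DMSO (−0.75, exact p = 0.0332) and with GSI (−0.66, p = 0.0656), and POU2F3 the high side with GSI (0.85, p = 0.0319). Of 14 other PRDM genes, 0 were on the low side in any comparison and 0, 1 and 1 on the high side, with PRDM7 (1.48, exact p = 0.00709) and PRDM1 (0.85, p = 0.0323) leading against T0 with DMSO and GSI. PRDM1 (0.31, exact p = 0.114) had the lowest p on the high side in GSI against DMSO, and PRDM11 had the lowest on the low side against T0 (−0.77, p = 0.0570 and −0.71, p = 0.0574). None of the 3 other SALL genes had a p under 0.05, with SALL1 and SALL2 or SALL3 at the ends and p-values from 0.0880 to 0.462.

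Of 9 genes of the LIN28 and let-7 axis in the library, 1, 2 and 2 were on the low side and 1, 1 and 0 on the high side. IGF2BP3, an RNA-binding protein and let-7 target, had exact p = 0.00701 on the low side in GSI against DMSO. Its median there was −0.03, so that its guides disagreed. In DMSO against T0 it had exact p = 0.0264 on the high side and 0.0456 on the low side, with a median of −0.10. It is thus counted on both sides of that comparison. In GSI against T0 its exact p was 0.0388 on the low side, with a median of −0.07. ZCCHC6, which adds uridines to let-7 precursors with LIN28, had 0.44 in GSI against DMSO (exact p = 0.0330). HMGA1, a chromatin protein repressed by let-7, had exact p = 0.0190 on the low side in DMSO against T0, with a median of 0.19, and p = 0.0228 in GSI against T0, with a median of −0.34. The guides of this list had a median of −0.52 in GSI against T0, with 8 of 9 genes negative. Over all tested guides the median of that comparison was −0.02, and 50.8% of single guides were negative. The median over all genes was also −0.02, and the share of all genes with a negative median was not counted. The median of the list was −0.04 in GSI against DMSO and −0.10 in DMSO against T0. Whether the list differs from all genes was not tested.

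Of 15 genes of the NuRD corepressor and CBFA2T2, partners of SALL4 and PRDM14, 1, 1 and 2 were on the low side and 0, 1 and 1 on the high side. HDAC1, a deacetylase subunit, had −0.55 in GSI against DMSO (exact p = 0.0352). HDAC2, also in this list, had −0.05 in that comparison (exact p = 0.677 on the low side). CHD4, a remodelling ATPase, had −1.37 in DMSO against T0 (exact p = 0.0235). The histone chaperones RBBP4 and RBBP7 were on opposite sides in GSI against T0, with −0.80 (exact p = 0.00559) and 0.99 (p = 0.0320), and RBBP7 had 0.76 in DMSO against T0 (p = 0.0251). CBFA2T2 itself had 0.26 in GSI against DMSO (exact p = 0.0855 on the high side). No adjusted RRA p in this list or in the KLF, POU, PRDM, SALL and let-7 lists was under 0.05.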

How the data were processed

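Guide abundance was measured by sequencing guides amplified from genomic DNA of 8 MB157R libraries (2 T0, 3 DMSO, 3 GSI). Per the labels, the authors used bcl2fastq 2.19, FastQC 0.11.5 and MAGeCK 0.5.9.2 (count), and deposited a table of raw read counts per guide. They also deposited a normalised signal, which was the raw count times a constant per library: 100% of its values gave whole reads (tolerance 0.001), and the test on these reads with the deposited scaling served as an alternative added after seeing the data.

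Raw counts were tested with edgeR 4.0.16 (quasi-likelihood, R 4.3.3) using median-ratio size factors over guides with a mean count of at least 10, each fit holding only the groups compared. Guide p-values were combined per gene by RRA (alpha 0.25, exact null, at least 4 guides, low and high side apart) without non-targeting and microRNA guides. P-values were Benjamini-Hochberg adjusted over all guides or genes, with 0.05 as threshold. DESeq2 1.42.0 was an alternative. Scripts were tested on simulated data. Named were all 8 members, their guides with an unadjusted p under 0.05, without overlap or at a count of 0, the extreme guides of each gene, and of each of the 7 lists the gene with the lowest p per side. Guides without overlap were added to that rule, and POU5F1B and the let-7 guides were described, after values were seen. The members and lists were chosen with earlier results of these data known. Reads of PCR products carry no molecular identifiers. Gene positions come from GENCODE for GRCh38. Some genes that the naming rule takes are not reported here.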

Additional observations from a re-analysis of the deposited data

How the results depend on the processing

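No member gene was called under any alternative run, the lowest adjusted p being 0.781 (PRDM14, DMSO against T0). With a mean count of at least 50, POU5F1, KLF4 and KLF5 kept under 4 guides and gave no gene value. The cause of the changes below was not tested, and none of the member genes that changed sign was called. Scaling to the non-targeting controls moved the median of all genes to −0.25 in DMSO against T0 and −0.22 in GSI against T0.

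DESeq2 called 6612 guides in DMSO against T0 (1 of the members) and 7836 in GSI against T0 (3 of the members), and 2 genes lower in GSI against T0. The joint fit called 34 guides and 3 genes lower in DMSO against T0 and 1 gene higher in GSI against T0. A mean count of at least 50 called 0 genes lower in DMSO against T0 and 1 in GSI against T0. Leaving out 1 library at a time, guide calls ranged from 0 to 8327 in DMSO against T0 and from 0 to 21131 in GSI against T0, both maxima without T0 replicate 1, and member guides called from 0 to 3 and from 0 to 8. Those without T0 replicate 1 were PRDM14 HGLibA_38377 and HGLibB_38327 and SALL4 HGLibA_42656 in DMSO against T0, which had a count of 0 in the remaining T0 library. In GSI against T0 they were these 3 with KLF4 HGLibB_25036 and HGLibB_25037, KLF5 HGLibB_25040, LIN28A HGLibB_26522 and PRDM14 HGLibB_38328. Without T0 replicate 1, the share of member guides called was not above that of all tested guides in either comparison. That fit rests on 1 T0 library, and these calls do not set the members apart. Gene calls lower ranged from 0 to 7 in DMSO against T0, at 0 without either T0 library, and from 0 to 1 in GSI against T0, and gene calls higher from 0 to 1 in GSI against DMSO.

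The median over the members was −0.043 with a mean count of at least 50 and −0.047 with control scaling in GSI against DMSO, and −0.20 to 0.10 without 1 library. It was −0.21 with the deposited size factors, −0.024 with the stricter minimum and −0.36 with control scaling in DMSO against T0, and −0.30 to 0.0055 without 1 library. It was −0.33 with the deposited size factors and −0.41 with control scaling in GSI against T0, and −0.21 to 0.055 without 1 library.

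Gene medians near 0 changed sign with the scaling or the stricter minimum. In GSI against DMSO, POU5F1 had −0.016 with the deposited size factors and −0.0013 with library totals, and KLF4 had 0.040 with control scaling. In DMSO against T0, NANOG had −0.061 with the deposited size factors and −0.26 with control scaling, and LIN28B had 0.067 with the stricter minimum. In GSI against T0, NANOG had 0.043 with TMM, 0.016 with library totals and 0.34 with the stricter minimum, and POU5F1 had −0.051 with the deposited size factors and −0.15 with control scaling.

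The replicate numbers were not used as pairs, since same-numbered GSI and DMSO libraries had correlations of deviations of 0.28, 0.065 and 0.12, although each of these libraries correlated best with its own number. Over all tested guides the Spearman correlations of these pairs were 0.82, 0.65 and 0.67. The value of 0.82, for replicate 1, was the highest of all library pairs, so the main test may leave out a pairing. A fit with the replicate block called 0 member guides and 0 member genes, and 1 gene lower in GSI against T0. With the block, the median over the members was 0.036 in GSI against DMSO, where POU5F1 had −0.029, KLF4 0.16, KLF5 0.14 and LIN28B 0.11. With the block and without the replicate 3 libraries, which have no partner at T0, the median over the members was 0.14 in DMSO against T0, where POU5F1 had 0.19, SALL4 0.092, KLF4 0.24, LIN28A 0.092 and LIN28B 0.14. It was 0.24 in GSI against T0, where NANOG had 0.39, PRDM14 0.86, KLF4 1.24, KLF5 0.54 and LIN28A 0.11.

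Leaving out 1 library at a time gave these ranges where a sign changed. In GSI against DMSO they were −0.082 to 0.17 for POU5F1, −0.54 to 0.26 for SALL4, −0.10 to 0.27 for KLF4, −1.28 to 0.76 for KLF5 and −0.38 to 0.14 for LIN28B. In DMSO against T0 they were −0.29 to 0.51 for NANOG, −0.33 to 0.070 for SALL4, −0.045 to 1.69 for PRDM14, −0.85 to 2.81 for KLF4, −1.09 to 0.27 for KLF5, −1.07 to 1.51 for LIN28A and −0.48 to 0.20 for LIN28B. In GSI against T0 they were −0.28 to 0.83 for NANOG, −0.69 to 0.033 for SALL4, −0.52 to 1.76 for PRDM14, −0.41 to 2.89 for KLF4, −1.39 to 0.031 for KLF5, −0.60 to 0.95 for LIN28A and −0.51 to 0.0060 for LIN28B.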
